A study of Mus musculus with 15 samples.

Results

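The genes described are 10 members of the circadian clock, Arntl, Clock, Npas2, Per2, Per3, Cry1, Cry2, Nr1d1, Nr1d2 and Dbp, in mouse ileal organoids given bile acids. They were taken by name from the 23420 gene symbols of the count files, and all 10 were in the files and passed the filter on low counts. Primary organoids, epithelial cultures grown in gel from the ileal crypts of C57BL/6 mice, were at passage 2. After 10 days the cultures were split, and on day 14 they were opened with a pipette tip and kept for 24 h in basal medium (DMEM) with 0.2% bovine serum albumin and vehicle or bile acids. RNA was sequenced from 15 libraries, 3 (a, b and c) in each of 5 groups. The groups were vehicle and 4 designed bile acid pools. H10 and H90 were modelled on human bile acids with 10% or 90% of them 12α-hydroxylated, and M10 and M90 were modelled on mouse bile acids with the same shares. The members and doses of each mixture are not given in the sources used here. All libraries were taken at 1 time after treatment and the labels used here give no hour of the day, so a shift of the rhythm and a change of its level cannot be told apart.

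The mammalian clock is a feedback loop of transcription. The proteins of Arntl (also called Bmal1) and of Clock, or of its relative Npas2, pair and switch on genes that carry E-box sequences, among them the Per and Cry genes, whose proteins return to block the pair, and the REV-ERB genes Nr1d1 and Nr1d2. REV-ERB proteins repress Arntl and other genes through a DNA element of their own, and Dbp, an E-box target itself, drives genes with a D-box, Per3 among them. Intestinal epithelium has such a clock, which is known to follow feeding, and a change of medium is known to reset clocks in culture. Every group here, vehicle included, received new medium at treatment.

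RefSeq promoters (GRCm38.p6, 250 bases before and 50 after each start) were in the reference table for 9 of the 10 genes, with 12 starts. Both strands were searched for the E-box CACGTG, its variant CACGTT, the D-box TTATGTAA and the REV-ERB element core TAGGTCA. Of the 9 genes, 1 held the E-box (Cry1), 3 its variant (Nr1d1, Cry1 and Cry2), 1 the D-box (Per3) and 1 the REV-ERB core (Arntl). Clock, Npas2, Nr1d2 and Dbp held none of these sequences, and Per2 had no listed promoter. Only the stretches that hold a match are shown. Arntl stands among the activators, Nr1d1, Cry1 and Cry2 among their targets, and Per3 was named above as a D-box gene. Each is written 5′ to 3′ on the gene's strand with the match in capitals.
Nr1d1: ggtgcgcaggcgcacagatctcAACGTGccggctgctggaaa
Per3: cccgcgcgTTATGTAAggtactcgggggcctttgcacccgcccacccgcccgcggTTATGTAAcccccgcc
Cry1: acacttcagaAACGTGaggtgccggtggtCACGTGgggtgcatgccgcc
Cry2: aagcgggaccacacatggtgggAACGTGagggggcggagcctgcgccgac
Arntl: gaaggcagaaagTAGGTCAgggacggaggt

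The Nr1d1 stretch lies at chr11:98775386-98775427 (minus strand) and holds the variant E-box 28 bases before the start. The Per3 stretch, chr4:151044808-151044878 (minus strand), holds the D-box at 205 and at 158 bases before the start. Cry1, at chr10:85185095-85185143 (minus strand), holds the variant at 79 and the E-box itself at 60 bases before the start. Cry2, at chr2:92434208-92434257 (minus strand), holds the variant 166 bases before the start. Arntl, at chr7:113207529-113207558 (plus strand), holds the receptor core from base 31 after the start of 1 of its 2 listed transcripts. Over all 32851 promoters of the table, 7.15% hold CACGTG, 4.68% CACGTT, 0.938% TTATGTAA and 2.61% TAGGTCA on either strand. These are letter matches, not binding sites, and a window without one says nothing of a factor that acts from elsewhere.

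Total counts ran from 11245807 (H90 c) to 28989526 (M10 a) per library. Villin (Vil1), an epithelial marker, stood at 1529 to 3077 CPM (counts scaled to a common library total) in every library. Fabp6, the ileal bile acid binding protein, stood at 46.1 to 62.4 CPM in vehicle and 4463 to 10703 CPM in the pools. The 6 proliferation markers fell in each pool by edgeR (6 of 6), from a summed 908 to 930 CPM in vehicle to 218 to 231 in H10, 598 to 696 in H90, 112 to 119 in M10 and 210 to 225 in M90. The 10 enterocyte markers summed to 12720 to 14932 CPM in vehicle, 20293 to 20806 in H10, 14470 to 15323 in H90, 32796 to 34169 in M10 and 23301 to 24726 in M90. Of these, 9 rose in H10, 6 rose and 2 fell in H90, 10 rose in M10 and 8 in M90. The 6 goblet markers summed to 1200 to 1227 CPM in vehicle, 3752 to 3948 in H10, 1902 to 2059 in H90, 7185 to 8142 in M10 and 3467 to 3817 in M90. Among the goblet markers 5 rose in each pool, and 1 fell in H90 and 1 in M90. The 4 stem cell markers summed to 169 to 186 CPM in vehicle, 37.8 to 46.5 in H10, 70.7 to 77.3 in H90, 55.1 to 58.0 in M10 and 34.3 to 40.8 in M90. The summed Paneth, enteroendocrine and tuft markers, at up to 91.0, 1031 and 78.6 CPM in vehicle, lay at 128 to 210, 1698 to 2308 and 90.6 to 138 CPM over the pools. Marker levels thus moved with the groups, their part in the clock gene values was not tested, and in bulk RNA fewer cells of a type and less RNA per cell cannot be told apart. Markers of mesenchyme, immune cells, endothelium and nerve summed to at most 14.6, 9.80, 1.57 and 1.503 CPM in any library, and Sox10 of glia had no count in any. The 7 liver markers summed to more, 166 to 203 CPM in vehicle, 177 to 267 in H10 and 74.9 to 214 in H90. In M10 they summed to 75.5 to 86.2 CPM and in M90 to 69.5 to 99.4. Libraries also fall into a pair of sets that the labels do not name: Mup20, a liver protein transcript, was at 23.0 to 35.9 CPM in vehicle, H10 and H90 a, and at 0.356 to 0.583 CPM in H90 b and c, M10 and M90. Col1a1, a collagen of mesenchyme, was at 0 to 0.107 CPM in the first set and 3.74 to 8.63 CPM in the second, and H90 a also held 14143 CPM of Rn45s against 1739 to 3215 elsewhere. H10 against vehicle and M90 against M10 are comparisons within 1 set, and the others cross sets in whole or in part, so for those the set and the treatment cannot be told apart except through H90, which has libraries in both.

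Apart from those of Mup20, Col1a1 and Rn45s, which are on plain library totals, levels are CPM on TMM-scaled totals, that is, counts divided by a library total corrected for composition. Per kilobase of annotated exon, Nr1d1 was the most abundant member in vehicle, at a mean of 20.7 CPM per kb. Nr1d2 (9.63), Cry1 (9.57), Npas2 (9.42), Per2 (9.06), Dbp (8.87) and Clock (8.13 CPM per kb) followed, with ranges that overlapped from each to the next. Arntl (3.60), Cry2 (2.99) and Per3 (2.68 CPM per kb) were the least abundant. In M10 the order was led by Nr1d1 at 55.9 and Dbp at 18.1 CPM per kb, while Arntl was last at 1.79 CPM per kb.

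**Figure D1:**
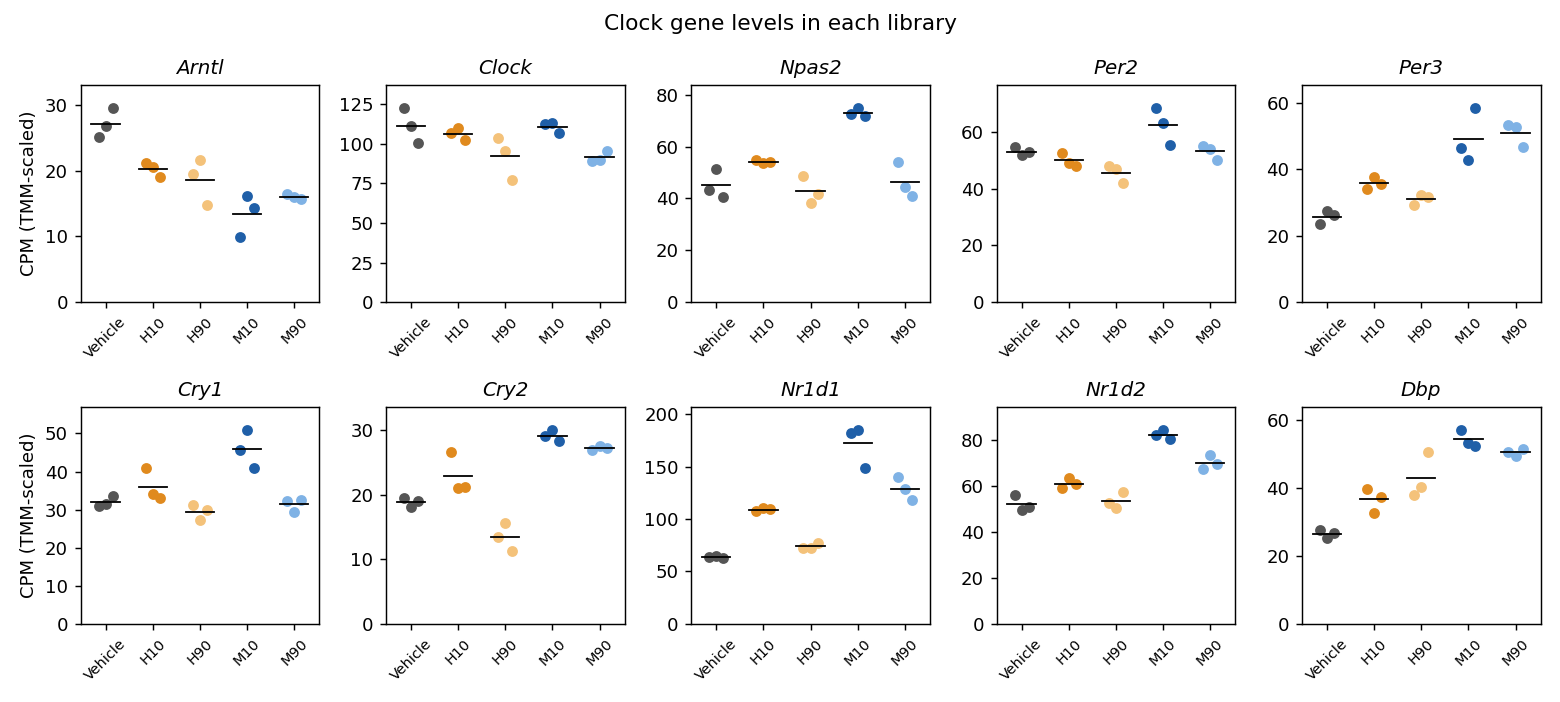
Level of each clock gene (y axis, CPM on TMM-scaled totals, from 0) in each library, with 3 points per group and a line at the mean. Nr1d1 runs from 62.6 to 64.5 CPM in vehicle to 149 to 185 in M10, while Arntl runs from 25.05 to 29.5 CPM in vehicle to 9.88 to 16.1 in M10.

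Against vehicle, Nr1d1 and Dbp rose and Arntl fell in all 4 pools, each with its largest change in M10. Calls rest on edgeR's quasi-likelihood test with Benjamini-Hochberg adjustment across the 13159 genes tested, at an adjusted p under 0.05. In H10, 6 of the 10 genes rose (24.0% of all tested genes did) and 1 fell (24.5%). In H90, 2 rose (11.7%) and 3 fell (9.86%). In M10, 8 rose (31.2%) and 1 fell (33.3%), and in M90, 5 rose (26.2%) and 2 fell (28.5%). For H10, H90, M10 and M90 the median log2 change of the 10 genes was 0.25, -0.10, 0.65 and 0.23. All tested genes had medians of -0.00, -0.01, -0.03 and -0.02 in that order. The 4 comparisons share the vehicle libraries, so their likeness is not independent.

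Nr1d1, which encodes REV-ERBα, a repressor of Arntl, made the largest change of the 10 in H10, M10 and M90. Its levels in libraries a, b and c were 64.2, 64.5 and 62.6 CPM in vehicle, 107, 110 and 110 in H10 and 72.7, 72.3 and 77.0 in H90. In M10 they were 183, 185 and 149 CPM, and in M90 140, 129 and 118. No library of any pool overlapped vehicle, and the groups stood apart in the order vehicle, H90, H10, M90, M10. Nr1d1 rose 1.71-fold in H10 (log2 0.77, SE 0.0701, edgeR adjusted p = 7.68e-12) and 2.70-fold in M10 (log2 1.43, SE 0.0698, adjusted p = 7.19e-20). It rose 2.02-fold in M90 (log2 1.02, SE 0.0698, adjusted p = 3.64e-15) and 1.16-fold in H90 (log2 0.21, SE 0.0715, adjusted p = 0.0286). The H90 call was lost without any 1 of vehicle a, b and c or H90 c (adjusted p = 0.0604 to 0.0996). It was also lost with library size only (log2 0.18), with a term for library set (0.19) and with limma-voom. H90 a alone, the library of the vehicle's set, gave log2 0.19.

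Nr1d2, the gene of REV-ERBβ, rose in H10, M10 and M90. Vehicle stood at 56.1, 49.6 and 50.6 CPM, H10 at 59.0, 63.3 and 60.6, M10 at 82.1, 84.2 and 80.35 and M90 at 67.2, 73.3 and 69.6. H90, at 52.4, 50.4 and 57.2 CPM, overlapped vehicle, while the other pools lay above it. Nr1d2 rose 1.17-fold in H10 (log2 0.23, SE 0.0712, edgeR adjusted p = 0.00699), 1.58-fold in M10 (log2 0.66, SE 0.0704, adjusted p = 1.79e-10), and the rise in M90 was 1.35-fold (log2 0.43, SE 0.0707, adjusted p = 2.70e-06). In H90 the log2 difference was 0.03 with a 95% interval of -0.11 to 0.18. The H10 call was lost with library size only (log2 0.10, adjusted p = 0.260) and without vehicle b (adjusted p = 0.0514).

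Dbp, a transcription factor of clock output that binds D-boxes, rose in all 4 pools, and none of the alternatives run ended these calls. Its levels were 27.6, 25.3 and 26.7 CPM in vehicle, 39.8, 32.8 and 37.4 in H10, 38.1, 40.3 and 50.5 in H90, 57.1, 53.4 and 52.4 in M10 and 50.7, 49.4 and 51.5 in M90. Every treated library lay above every vehicle library. Dbp rose 1.38-fold in H10 (log2 0.47, SE 0.0953, edgeR adjusted p = 8.32e-05) and 1.61-fold in H90 (log2 0.69, SE 0.0957, adjusted p = 7.11e-07). It rose 2.05-fold in M10 (log2 1.04, SE 0.0938, adjusted p = 3.12e-12), and the rise in M90 was 1.91-fold (log2 0.93, SE 0.0940, adjusted p = 9.25e-11). H90 c, the shallowest library of the series, was the highest of its group for Dbp and the lowest for Arntl, Clock, Per2 and Cry2. In H90 a alone, within the set of vehicle, the log2 change was 0.52 (adjusted p = 0.00167).

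Of the Period genes, whose proteins carry the negative feedback, Per3 rose in H10, M10 and M90 and Per2 in M10. Per3 stood at 23.6, 27.5 and 26.2 CPM in vehicle, 34.1, 37.7 and 35.7 in H10, 29.2, 32.2 and 31.8 in H90, 46.4, 42.9 and 58.45 in M10 and 53.2, 52.8 and 46.9 in M90. It rose 1.39-fold in H10 (log2 0.47, SE 0.101, edgeR adjusted p = 0.000152), 1.90-fold in M10 (log2 0.93, SE 0.0994, adjusted p = 2.11e-10), and the rise in M90 was 1.97-fold (log2 0.98, SE 0.0994, adjusted p = 1.04e-10). All H90 libraries lay above vehicle as well, but the log2 difference of 0.26 did not pass (95% interval 0.06 to 0.47, adjusted p = 0.0619; it passed without H90 a, M10 b or M10 c). Per3 is the member whose promoter stretch above holds the D-box at both sites, and whether these bear on its level was not tested. Per2 ranged over 51.8 to 54.6 CPM in vehicle, 48.1 to 52.7 in H10, 42.0 to 48.1 in H90, 55.5 to 68.3 in M10 and 50.1 to 55.2 in M90. Its rise in M10 (log2 0.23, SE 0.0791, edgeR adjusted p = 0.00968) was lost without M10 a (log2 0.16) and turned to log2 -0.03 when libraries were scaled by size only. The call was also lost with upper-quartile scaling and with a term for library set (log2 0.34, adjusted p = 0.05055). All H90 libraries lay below vehicle (log2 -0.21, adjusted p = 0.0614), and with the replicate letters as a block this difference passed (log2 -0.22, adjusted p = 0.0318).

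The cryptochromes Cry1 and Cry2 are partners of the Period proteins in repression. Cry2 stood at 19.5, 18.1 and 19.05 CPM in vehicle, 26.6, 21.1 and 21.1 in H10, 13.4, 15.7 and 11.3 in H90, 29.1, 30.02 and 28.3 in M10 and 26.9, 27.5 and 27.2 in M90. Cry2 thus lay wholly below vehicle in H90 and wholly above it in H10, M10 and M90. In H90 it fell 1.39-fold (log2 -0.47, SE 0.123, edgeR adjusted p = 0.00433), and H90 a alone gave log2 -0.49 (adjusted p = 0.0436). In M10 it rose 1.55-fold (log2 0.63, SE 0.116, adjusted p = 1.27e-05), and the rise in M90 was 1.44-fold (log2 0.53, SE 0.117, adjusted p = 0.000215). With a term for library set the M90 difference was log2 0.50 (adjusted p = 0.0842) and the H90 difference -0.49 (adjusted p = 0.0810). The rise in H10 (log2 0.28, adjusted p = 0.0477) was lost with library size only (log2 0.15, adjusted p = 0.310), upper-quartile scaling or no filter. It was also lost with the replicate letters as a block (adjusted p = 0.0513). Leaving out any 1 of vehicle a, b or c, H10 a, M10 a or the M90 libraries ended it too (adjusted p = 0.0503 to 0.338). Cry1 stood at 30.9 to 33.5 CPM in vehicle, 33.1 to 40.9 in H10, 27.3 to 31.1 in H90, 40.9 to 50.9 in M10 and 29.3 to 32.6 in M90. Cry1 rose 1.43-fold in M10 (log2 0.52, SE 0.0972, edgeR adjusted p = 1.47e-05). In the other pools its difference missed the threshold, and the 95% intervals ran from -0.32 to 0.37 between them.

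Arntl, the activator without which the loop does not run, fell in each pool. Its levels were 25.05, 26.8 and 29.5 CPM in vehicle, 21.2, 20.6 and 18.98 in H10, 19.5, 21.6 and 14.7 in H90, 9.88, 16.1 and 14.3 in M10 and 16.4, 16.0 and 15.7 in M90. All 12 treated libraries lay below all 3 vehicle libraries. Arntl fell 2.02-fold in M10 (log2 -1.02, SE 0.144, edgeR adjusted p = 9.89e-08), and its decrease in M90 was 1.69-fold (log2 -0.76, SE 0.142, adjusted p = 2.18e-05). It fell 1.34-fold in H10 (log2 -0.42, SE 0.141, adjusted p = 0.0118) and 1.45-fold in H90 (log2 -0.53, SE 0.142, adjusted p = 0.00550). In M10 the spread was wide, with library a well below b and c. The H10 call was lost without vehicle c or without H10 c, and H90 a alone gave log2 -0.48 (adjusted p = 0.108). A missed threshold with 1 H90 library does not show that Arntl was equal there.

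Clock and Npas2 encode the partners of the Arntl protein. Clock ranged over 100.5 to 122.6 CPM in vehicle, 102 to 110.1 in H10, 77.4 to 104 in H90, 107.0 to 113 in M10 and 89.1 to 95.8 in M90. It fell slightly in the pools with the 90% share, by log2 -0.27 in H90 (SE 0.0765, edgeR adjusted p = 0.0111) and by log2 -0.28 in M90 (SE 0.0759, adjusted p = 0.00209). With a term for library set both calls ended (log2 -0.10 and -0.03), and the H90 call was lost without vehicle a or H90 c (log2 -0.16 without H90 c). In H10 and M10 its log2 differences were -0.07 (95% interval -0.22 to 0.09) and -0.01 (-0.16 to 0.15). Npas2 stood at 43.3, 51.3 and 40.7 CPM in vehicle, 54.8, 53.7 and 54.2 in H10, 48.6, 38.4 and 41.7 in H90, 72.7, 74.8 and 71.7 in M10 and 54.1, 44.5 and 40.9 in M90. It rose 1.62-fold in M10 (log2 0.69, SE 0.0929, adjusted p = 4.99e-08) and 1.20-fold in H10 (log2 0.26, SE 0.0940, adjusted p = 0.0198). The H10 call was lost without vehicle a, vehicle c or H10 a (adjusted p = 0.0540 to 0.133). It was also lost with upper-quartile scaling and with library size only (log2 0.13, adjusted p = 0.242). H90 and M90 overlapped vehicle, at log2 -0.07 and 0.04.

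**Figure D2:**
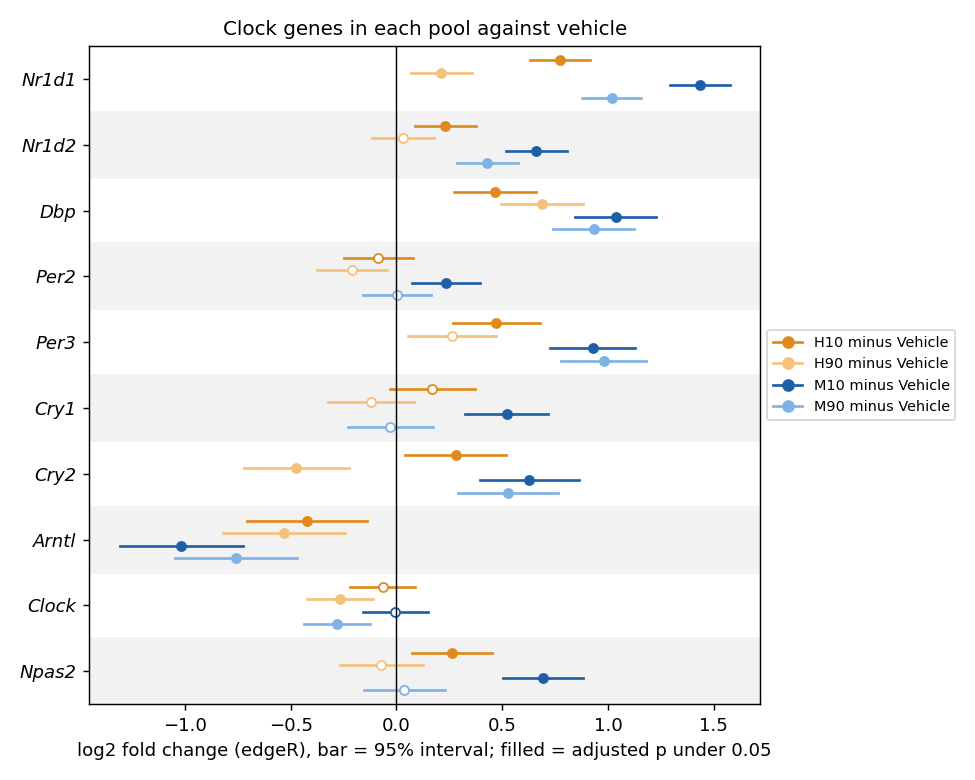
Log2 fold change of each clock gene against vehicle (x axis) in the 4 pools, with bars for the 95% interval and filled points where the edgeR adjusted p is under 0.05. Nr1d1, Nr1d2, Dbp and Per3 lie to the right of 0 and Arntl to the left, with M10 farthest out for Nr1d1 (1.43), Dbp (1.04) and Arntl (-1.02).

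The levels of Nr1d1 and Arntl within a library form a ratio that does not depend on the scaling of libraries. The counts of Nr1d1 stood at 2.12 to 2.56 times those of Arntl in vehicle, 3.35 to 5.23 times in H90, 5.06 to 5.77 in H10, 7.55 to 8.55 in M90 and 10.4 to 18.5 in M10. The 12 treated libraries lay above the 3 vehicle libraries, and of the pools H90 alone overlapped another one, H10. The mean log2 ratio was 1.24 ± 0.138 (SD, n = 3) in vehicle, 2.01 ± 0.335 in H90, 2.43 ± 0.0959 in H10, 3.01 ± 0.0904 in M90 and 3.70 ± 0.443 in M10. These ratios describe a pair picked with earlier results known and carry no test.

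**Figure D3:**
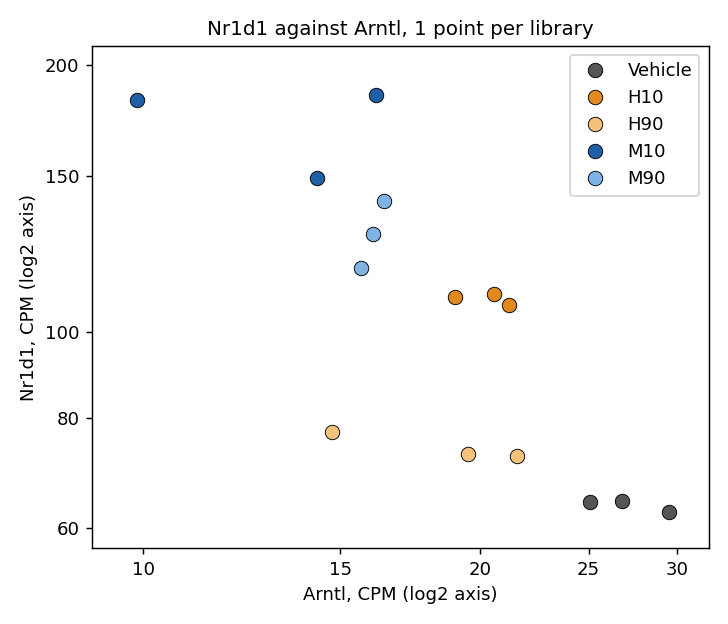
Level of Nr1d1 (y axis, CPM) against Arntl (x axis, CPM), both on log2 axes, 1 point per library. The vehicle libraries lie at the lower right and the M10 libraries at the upper left, where Nr1d1 is 10.4 to 18.5 times Arntl.

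Between pools, the larger 12α-hydroxylated share went with lower levels of several members in both species models. In H90 against H10, 6 of 10 were lower (18.4% of all tested genes) and 0 higher (18.2%) by edgeR. Of these members 1 was higher at an unadjusted p under 0.05, and limma-voom and DESeq2 each called 0 higher. In M90 against M10, 6 were lower (20.0%) and 0 higher (21.3%), with 0 at an unadjusted p under 0.05 and 0 by either other tool. Nr1d1 was lower at the 90% share by log2 -0.56 in the human-like pools (SE 0.0704, adjusted p = 3.57e-08) and -0.42 in the mouse-like pools (SE 0.0673, adjusted p = 3.51e-06). Npas2 was lower by log2 -0.33 (SE 0.0955, adjusted p = 0.00550) and -0.66 (SE 0.0929, adjusted p = 4.37e-07). Cry1 was lower by log2 -0.29 (SE 0.1002, adjusted p = 0.0209) and -0.55 (SE 0.0974, adjusted p = 1.53e-05). Clock and Nr1d2 were lower too, by log2 -0.20 each in the human-like pools (adjusted p = 0.0402 and 0.0290) and by -0.28 and -0.23 in the mouse-like pools (adjusted p = 0.00363 and 0.00669). The sixth was Cry2 in the human-like pools (log2 -0.75, SE 0.122, adjusted p = 4.70e-06) and Per2 in the mouse-like pools (log2 -0.23, SE 0.0792, adjusted p = 0.0167). With H90 a as the only H90 library, within the set of H10, 2 of the 6 calls in the human-like pools were left, Nr1d1 (log2 -0.58) and Cry2 (log2 -0.76). Of the calls lost there, Nr1d2 stood at log2 -0.22, Cry1 at -0.21, Npas2 at -0.15 and Clock at -0.03. Without H90 b the calls of Clock, Npas2, Cry1 and Nr1d2 were lost too (adjusted p = 0.0519 to 0.123). Upper-quartile scaling and library size only each ended those of Clock, Cry1 and Nr1d2 in the human-like pools. In the mouse-like pools library size only ended the calls of Clock (log2 -0.16), Nr1d2 (-0.12) and Per2 (-0.12). There the calls of Nr1d2 and Per2 were also lost with upper-quartile scaling, and that of Per2 without M10 a or M90 c.

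For Arntl, Dbp and Per3 the difference by share missed the threshold. For Arntl the 90% minus 10% difference was log2 -0.11 in the human-like pools (95% interval -0.40 to 0.18) and 0.26 in the mouse-like pools (-0.04 to 0.56). For Dbp it was log2 0.22 (0.03 to 0.41, adjusted p = 0.0666, and 0.0196 without H90 a) and -0.10 (-0.29 to 0.08). Per3 gave log2 -0.21 (-0.41 to -0.00) and 0.05 (-0.14 to 0.25).

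At an equal share, most members stood higher in the mouse-like than in the human-like pools. In M10 against H10, 8 members were higher (18.2% of all tested genes) and 1 lower (18.1%), and in M90 against H90, 6 were higher (19.2%) and 0 lower (19.5%), with 0 lower at an unadjusted p under 0.05 and by limma-voom or DESeq2. Nr1d1 was 1.58-fold higher at the 10% share (log2 0.66, SE 0.0679, edgeR adjusted p = 5.45e-10) and 1.75-fold at the 90% share (log2 0.80, SE 0.0701, adjusted p = 7.43e-12). Per3 was higher by log2 0.46 (SE 0.0978, adjusted p = 0.000283) and 0.72 (SE 0.0998, adjusted p = 2.57e-07), and Nr1d2 by 0.43 (SE 0.0700, adjusted p = 4.77e-06) and 0.40 (SE 0.0716, adjusted p = 2.16e-05). Cry2 was 2.00-fold higher in M90 than in H90 (log2 1.001, SE 0.121, adjusted p = 1.62e-08) and 1.27-fold higher in M10 than in H10 (log2 0.35, SE 0.116, adjusted p = 0.0160). Dbp was higher by log2 0.57 at the 10% share (SE 0.0921, adjusted p = 4.85e-06) and 0.25 at the 90% share (SE 0.0927, adjusted p = 0.0332). The call of Dbp at the 90% share was lost with upper-quartile scaling, library size only (log2 0.13) or a term for library set (0.16). Leaving out H90 a, H90 b or any 1 of the M90 libraries ended it too. Per2 was higher by log2 0.32 (adjusted p = 0.00148) and 0.21 (adjusted p = 0.0373). The second call of Per2 was lost with upper-quartile scaling (log2 0.17), library size only (0.096), limma-voom (0.19) and the contrast's groups alone (0.21), and without H90 c, M90 a or M90 b (adjusted p = 0.1001 to 0.143). Npas2 (log2 0.43, adjusted p = 0.000322) and Cry1 (log2 0.35, adjusted p = 0.00408) were higher at the 10% share, and at the 90% share their differences were 0.11 and 0.09 with intervals that held 0. Arntl was lower in M10 than in H10 (log2 -0.59, SE 0.145, adjusted p = 0.00123), and its M90 minus H90 difference was -0.23 (95% interval -0.52 to 0.07). Within a set, with H90 b and c alone, 5 of the 6 calls of M90 against H90 remained and that of Dbp did not (log2 0.16, adjusted p = 0.224). In M10 against H10, which crosses the sets, the term for library set left 4 of the 8 higher calls, Nr1d1 (log2 0.62), Nr1d2 (0.40), Npas2 (0.71) and Per2 (0.43), and ended that of Arntl (-0.51, adjusted p = 0.208). The higher calls lost were those of Cry1 (log2 0.48), Per3 (0.32), Cry2 (0.32) and Dbp (0.32). Library size only ended the M10 against H10 calls of Cry1 (log2 0.22), Cry2 (0.22) and Per2 (0.19). That of Cry2 was also lost with upper-quartile scaling and without H10 b or H10 c.

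**Figure D4:**
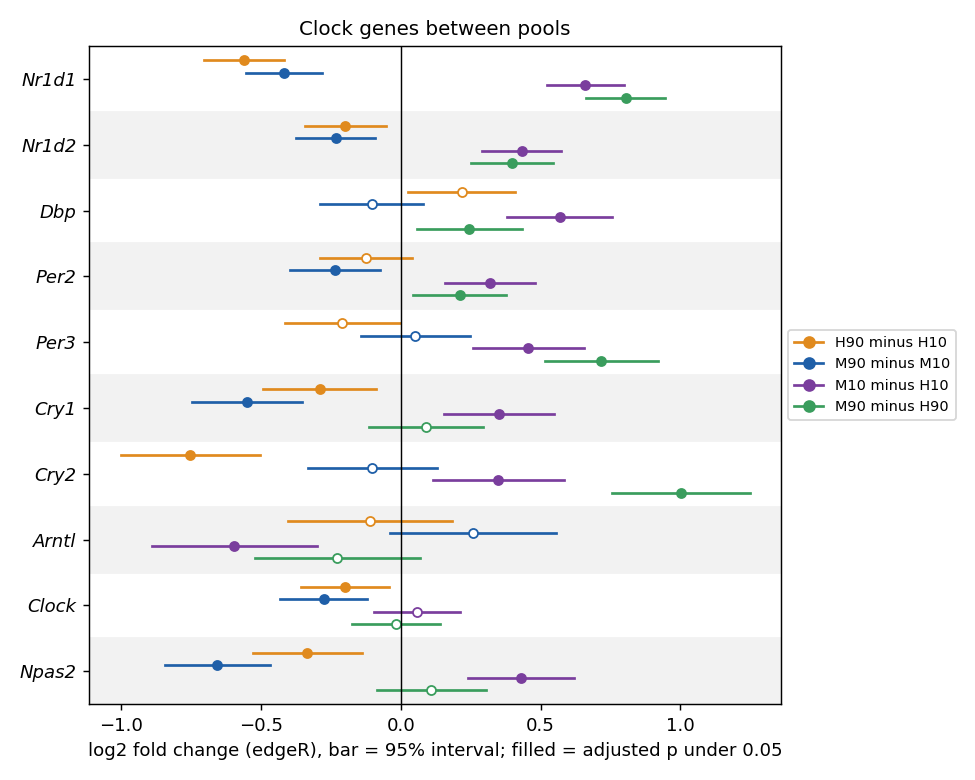
Log2 differences between pools (x axis) for each clock gene, with 95% intervals and filled points where the edgeR adjusted p is under 0.05. Nr1d1 is lower at the 90% share in both species models (-0.56 and -0.42) and higher in the mouse-like pools at both shares (0.66 and 0.80).

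Whether the species model changed the effect of the share was asked by the interaction, the M90 minus M10 difference less the H90 minus H10 difference. It was called for Cry2 (log2 0.65, SE 0.167, edgeR adjusted p = 0.00581), 1 of 10 members higher (7.85% of all tested genes) and 0 lower (6.92%). At an unadjusted p under 0.05, 2 members were lower, Npas2 and Dbp (log2 -0.32 each), and limma-voom and DESeq2 called 0 lower. Cry2 was 1.68-fold lower at the 90% share in the human-like pools and differed by log2 -0.10 (95% interval -0.33 to 0.13) in the mouse-like pools.

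The other genes of the clock were taken from lists of 5 further core genes, 9 outputs and 11 modifiers, read against the same shares of all tested genes as above. Of the core genes 0 rose (24.0% of all tested genes) and 1 fell (24.5%) in H10. In H90, 0 rose (11.7%) and 0 fell (9.86%). In M10, 1 rose (31.2%) and 1 fell (33.3%), and in M90, 1 rose (26.2%) and 1 fell (28.5%). The 0 higher in H10 and in H90 by edgeR was also 0 at an unadjusted p under 0.05, by limma-voom and by DESeq2. The 0 lower in H90 by edgeR was 1 (Timeless) at an unadjusted p under 0.05, 1 by limma-voom and 0 by DESeq2. Of the 5, 3 were tested, since Rora and Rorb had at most 8 and 15 counts in a library. Per1, the third Period gene, rose in the mouse-like pools. It stood at 24.3, 23.5 and 20.2 CPM in vehicle, 25.9, 22.5 and 23.5 in H10, 21.3, 22.4 and 23.5 in H90, 69.45, 79.3 and 73.8 in M10 and 39.5, 38.9 and 37.4 in M90. The human-like pools overlapped vehicle, and the mouse-like pools lay above it, 3.28-fold in M10 (log2 1.71, SE 0.0921, edgeR adjusted p = 1.22e-18), and the rise in M90 was 1.71-fold (log2 0.77, SE 0.0929, adjusted p = 6.05e-09). Timeless, in mammals chiefly a protein of the replication fork, fell in H10, M10 and M90, from 265, 420 and 397 counts in vehicle to 38, 30 and 43 in H10, 2, 3 and 0 in M10 and 37, 41 and 65 in M90. In H90 it gave log2 -0.51 (edgeR adjusted p = 0.0915).

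Of the 9 outputs, 5 rose (24.0% of all tested genes) and 1 fell (24.5%) in H10. In H90, 1 rose (11.7%) and 1 fell (9.86%). In M10, 5 rose (31.2%) and 1 fell (33.3%), and in M90, 4 rose (26.2%) and 1 fell (28.5%). Usp2, a deubiquitinase whose transcript is known to cycle with the clock, rose in each pool. It stood at 6.41, 7.79 and 9.89 CPM in vehicle, 32.3, 27.5 and 27.9 in H10, 22.6, 24.4 and 24.3 in H90, 36.4, 45.6 and 39.8 in M10 and 51.4, 49.0 and 46.6 in M90. Its fold changes were 3.61, 2.93, 5.01 and 6.05 in H10, H90, M10 and M90 (SE of log2 0.122 to 0.125, largest edgeR adjusted p = 2.56e-12). Tef, a relative of Dbp with the same binding site, rose in M10 (log2 0.42, adjusted p = 8.37e-07) and M90 (log2 0.26, adjusted p = 0.00148) and gave 0.03 and -0.05 in H10 and H90. Noct, a nocturnin gene listed in the files under its older symbol, rose in H10 (log2 0.54, adjusted p = 0.00558), M10 (1.45, adjusted p = 9.67e-09) and M90 (0.72, adjusted p = 0.000391). Ciart, a repressor of the Arntl and Clock pair, rose in H10 (log2 0.59, adjusted p = 0.0147) and M10 (0.63, adjusted p = 0.00658) from 5.36 to 6.83 CPM in vehicle. The H10 call of Ciart was lost without vehicle a or H10 b and with library size only, and its M10 call with library size only (log2 0.37) and a term for library set (0.19). Nfil3, which competes with Dbp for the D-box, rose in H10 (log2 0.45, adjusted p = 0.0372) and did not pass elsewhere. That call was lost with upper-quartile scaling, library size only or no filter (adjusted p = 0.0609 to 0.142) and without vehicle b, H10 b or H10 c (adjusted p = 0.0668 to 0.225). Bhlhe41, a repressor at E-boxes, rose in H10, M10 and M90 from 2 to 4 counts in a vehicle library to 11 to 17, 14 to 37 and 25 to 28 counts. At these low counts its log2 changes were 2.21 (95% interval 0.66 to 3.76), 3.01 (1.49 to 4.52) and 3.01 (1.49 to 4.52), and the H10 call was lost without vehicle b, vehicle c or H10 a. Wee1, a cell cycle kinase gene, fell in all 4 pools, by log2 -0.73, -0.43, -0.28 and -0.85 in H10, H90, M10 and M90 (largest adjusted p = 0.00952). A term for library set ended the calls of Wee1 in M10 (log2 -0.29, adjusted p = 0.177) and, in M90, of Tef (0.29, adjusted p = 0.0739) and Noct (0.77, adjusted p = 0.0557).

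The 11 modifiers of clock proteins were kinases, phosphorylation partners, ubiquitin ligase subunits and a deacetylase. Of these, 3 rose (24.0% of all tested genes) and 1 fell (24.5%) in H10. In H90, 1 rose (11.7%) and 0 fell (9.86%). In M10, 6 rose (31.2%) and 2 fell (33.3%), and in M90, 2 rose (26.2%) and 2 fell (28.5%). The 0 lower in H90 by edgeR was 0 at an unadjusted p under 0.05 and by limma-voom and DESeq2 as well. Prkaa2, a catalytic subunit of AMP-activated kinase, rose in each pool, by log2 0.69, 0.32, 0.90 and 0.58 in H10, H90, M10 and M90 (SE 0.0593 to 0.0600, largest edgeR adjusted p = 9.74e-05). The H90 call was lost with a term for library set (log2 0.20, adjusted p = 0.134) and with H90 a alone (log2 0.19, adjusted p = 0.1195). Its counterpart Prkaa1 fell in H10 (log2 -0.25), M10 (-0.42) and M90 (-0.42). The H10 call was lost without vehicle a, vehicle c, H10 a or H10 c (adjusted p = 0.0538 to 0.0922), and the other calls of Prkaa1 with a term for library set (log2 -0.18 each). Csnk1e, a casein kinase that phosphorylates Period proteins, rose in M10 (log2 0.93, adjusted p = 6.46e-10) and not past the threshold elsewhere. Fbxw11, of the ligase that recognises phosphorylated Period, rose in H10 (log2 0.26) and M10 (0.62). Sirt1, a deacetylase tied to the clock, fell in M10 (log2 -0.44) and M90 (-0.37), and both calls were lost with a term for library set (log2 -0.37 and -0.30), that in M90 also without vehicle a.

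**Figure D5:**
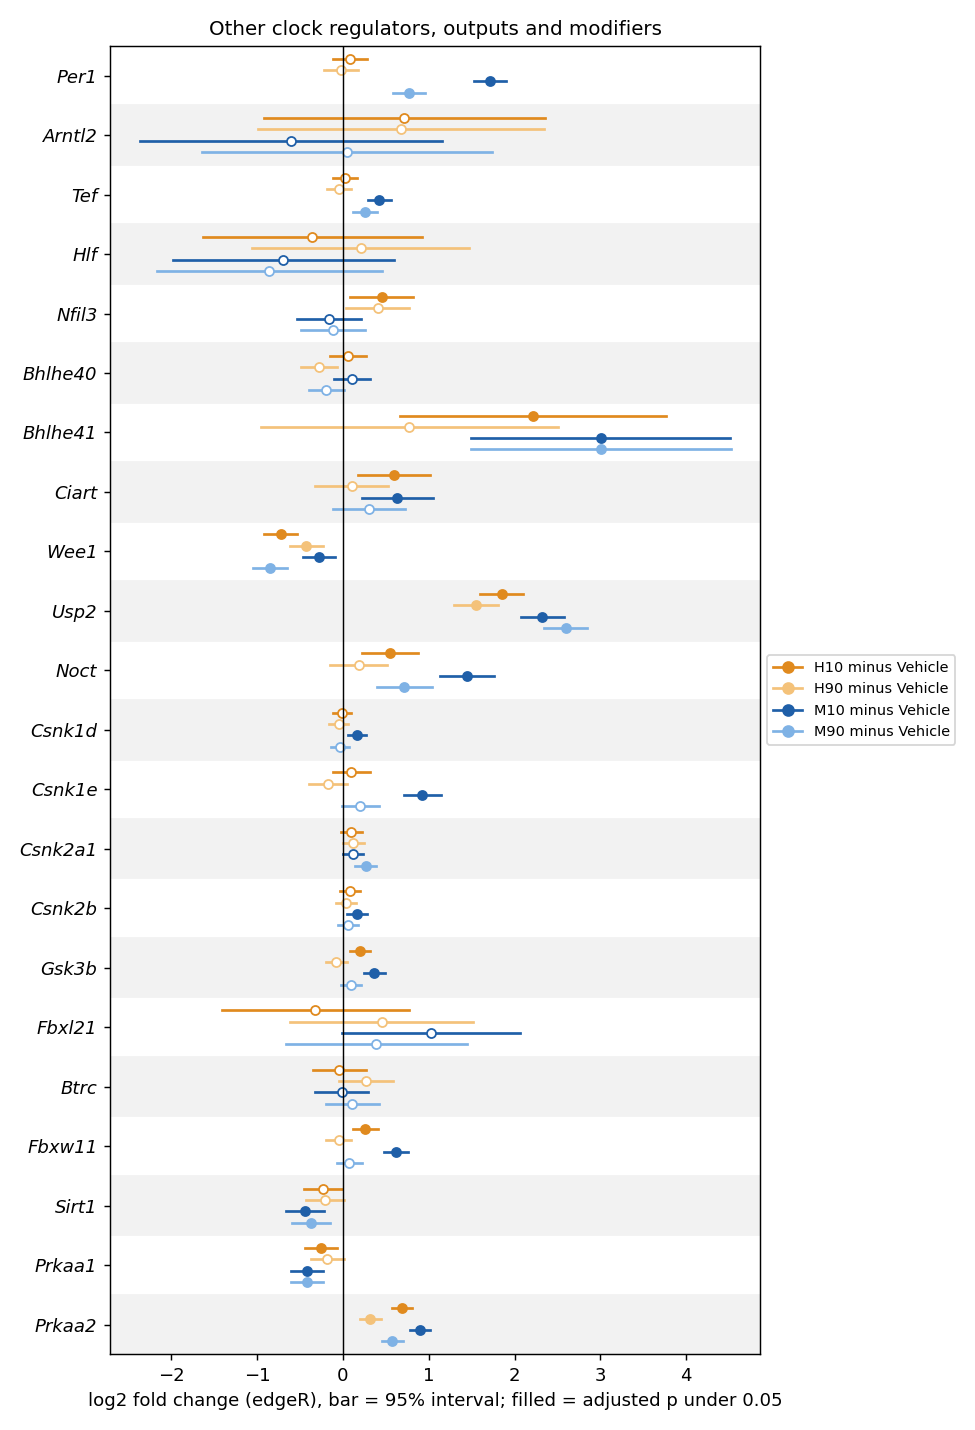
Log2 fold change against vehicle (x axis) of the other clock genes tested, except Timeless, in the 4 pools, with 95% intervals and filled points where the edgeR adjusted p is under 0.05. Usp2 lies at 1.55 to 2.60 with narrow bars, Bhlhe41 lies farther right in H10, M10 and M90 (2.21, 3.01 and 3.01) with wide bars, and Per1 is at 1.71 in M10, 0.77 in M90, 0.08 in H10 and -0.02 in H90.

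Over the 15 libraries Arntl correlated negatively with every other member but Clock, and Clock negatively with Per3 (r = -0.24) and Dbp (-0.40). All other pairs of members correlated positively. These are Pearson correlations of log2 CPM, given without a test, since the libraries share groups. Nr1d1 was most like Nr1d2 (r = 0.95), Per3 most like Nr1d1 (0.87) and Npas2 most like Cry1 (0.87). Arntl ran against Dbp (r = -0.91), Nr1d2 (-0.80) and Nr1d1 (-0.79), and its closest member was Clock at 0.23. Among 11033 other genes with a mean of at least 2 CPM, the one most like Nr1d1 was Sidt2 (r = 0.99), like Nr1d2 Dnm2 (0.97), like Per3 Dbi (0.96) and like Npas2 Ssfa2 (0.96). For Dbp it was Slc25a34 (r = 0.95), for Arntl Pfkm (0.95), for Cry2 Prkab2 (0.94), for Cry1 Bcar1 (0.94), for Clock Kpna4 (0.92) and for Per2 Ceacam1 (0.91). The pattern of Nr1d1 was common, with 980 genes above r = 0.9, and Nr1d2 had 375, Per3 232 and Npas2 170. Cry1 had 56, Dbp 46, Arntl and Cry2 8 each, Clock 4 and Per2 1.

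On GRCm38 (GENCODE vM21) the 10 genes are all protein coding. Nr1d1 lies at chromosome 11, 98767932 to 98775333, Nr1d2 at chromosome 14, 18204054 to 18239127, and Dbp at chromosome 7, 45705088 to 45710203. Arntl lies at chromosome 7, 113207465 to 113314126, Clock at chromosome 5, 76209868 to 76304792, and Npas2 at chromosome 1, 39193731 to 39363236. Per2 lies at chromosome 1, 91415982 to 91459324, and Per3 at chromosome 4, 151003652 to 151044665. Cry1 lies at chromosome 10, 85131700 to 85185064, and Cry2 at chromosome 2, 92403646 to 92434043. Exons of Nr1d1 overlap those of Thra, on the other strand, over 8.55% of their length, and exons of Dbp overlap those of Sphk2 over 18.0%. The strand setting of the counting is not given in the sources used here, so reads in these stretches may have gone to either gene or to none. Thra changed by log2 0.25 and Sphk2 by 0.51 in M10 against vehicle, where Nr1d1 changed by 1.43 and Dbp by 1.04 (Thra and Sphk2 were named for the overlap, after values were seen). In H90, Sphk2 gave log2 -0.02 where Dbp rose. From vehicle to H10, mean levels went from 105 to 142 CPM for Sphk2 and from 26.5 to 36.6 CPM for Dbp. Over the same step Thra went from 104 to 121 CPM and Nr1d1 from 63.8 to 109 CPM. In M90 the means were 126 CPM for Sphk2, 50.5 for Dbp, 123 for Thra and 129 for Nr1d1. Whether shared reads shaped these values was not tested.

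The size of the calls depends on scaling and on the library sets. Scaled by library size alone, all genes against vehicle had a median log2 of -0.13, -0.05, -0.29 and -0.17 for H10, H90, M10 and M90, and the share of calls that were higher went from 49.5, 54.3, 48.4 and 47.9% to 33.3, 42.5, 29.5 and 31.9%. Nr1d1 in H10, M10 and M90, and Dbp, Per3 and Arntl in the pools where they were called, kept their calls there, Nr1d1 at log2 1.17 and Arntl at -1.28 in M10. Between pools the share of higher calls went from 49.8 to 66.9% for H90 minus H10, from 51.6 to 69.7% for M90 minus M10, from 50.1 to 25.1% for M10 minus H10 and from 49.6 to 30.1% for M90 minus H90. With library set as a term, which only the 3 H90 libraries can estimate, M10 against vehicle gave Nr1d1 log2 1.40 (edgeR adjusted p = 4.39e-11), Dbp 0.79 (adjusted p = 0.000113), Per3 0.80 (adjusted p = 0.000425) and Arntl -0.93 (adjusted p = 0.00420). In M90 it gave Nr1d1 0.98 (adjusted p = 1.91e-07), Dbp 0.68 (adjusted p = 0.00111) and Arntl -0.67 (adjusted p = 0.0505). Whether the 3 libraries of a group stem from different mice or wells is not given in the sources used here, and the p-values then measure the spread between these libraries, which may be technical.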

How the data were processed

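RNA was selected by poly-A pull-down and made into libraries with a TruSeq kit, per the labels' protocols. The submitters' processing notes name bcl2fastq 2.17, STAR 2.5.2b, featureCounts 1.5.0-p3 and the build mm10 (GRCm38). The deposited values are raw, unscaled read counts for each gene symbol. The sources used here do not give the annotation, the strand setting or what was done with multimapping reads.

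Genes were kept by filterByExpr (13159 of 23420), scaled by TMM and tested by edgeR 4.0.16 quasi-likelihood (robust, two-sided) in R 4.3.3. The model held 5 group means (10 residual degrees of freedom). Standard errors come from the F statistic, and 95% intervals use its degrees of freedom. Alternatives were other scalings and filters, non-robust shrinkage, limma 3.58.1 (voom), DESeq2 1.42.0, the contrast's groups alone, the replicate letter as a block, a term for library set and leaving out each library. Fits within 1 library set were added after the data were seen. The pipeline was tested on simulated data.

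The members and lists were chosen with earlier results of these data known. Text names all members, members of the other clock lists, and the gene most correlated with each member. Thra and Sphk2 fall outside that rule. Some genes of the lists are not reported here and were left out of the list counts. Ciart and Noct are Gm129 and Ccrn4l in the files. Exon lengths are GENCODE vM21 unions. Libraries of a group were compared by chi-square of counts, and none were duplicates.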

Additional observations from a re-analysis of the deposited data

Results flagged for a closer look

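The effect of the 90% against the 10% share differed between the mouse-like and human-like pools for 6 of the 33 clock genes tested (18.2%) by the edgeR interaction test, against 14.8% of all tested genes, so the share was near the background. Values are log2, mouse-like minus human-like. Cry2 gave 0.65 (adjusted p = 0.00581), with log2 -0.75 in the human-like pools and -0.10 in the mouse-like pools. Per1 gave -0.84 (adjusted p = 1.31e-05), with -0.10 and -0.94. Wee1 gave -0.87 (adjusted p = 1.33e-05), higher at the 90% share in the human-like pools (0.30) and lower in the mouse-like pools (-0.57). Its call in the human-like pools was lost with a term for library set and without H10 b. Usp2 gave 0.57 (adjusted p = 0.00981), with -0.30 and 0.27. The call at -0.30 was lost with upper-quartile scaling, library size only or a term for library set, and without H10 a, H90 a or H90 b. That at 0.27 was lost without M10 a, M10 c, M90 a or M90 b. The interaction calls of Wee1 and Usp2 themselves were kept under every alternative. Csnk1e gave -0.46 (adjusted p = 0.0326), with -0.26 and -0.72, and its call was lost without any 1 of H10 a, H10 c, H90 a, H90 c, M10 a, M90 b and M90 c (adjusted p = 0.0584 to 0.110). Timeless gave 2.15 (adjusted p = 0.0117), but M10 held at most 3 counts per library, and with library set as a term its call was lost (log2 1.88, adjusted p = 0.0530), as it was with limma-voom (log2 2.166, adjusted p = 0.174) and without M10 c (log2 1.70).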

How the results depend on the processing

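Of 56 calls of the 10 genes over the 9 contrasts, 30 were kept under every alternative that kept all libraries and 29 also when each library was left out in turn. Calls lost numbered 0 with RLE scaling, DESeq2, the stricter filter or non-robust shrinkage, 1 without a filter, 2 with the contrast's groups alone, 3 with limma-voom, 11 with upper-quartile scaling, 16 with library size only and 18 with a term for library set. The cause was not tested. Of 50 group levels, 18 moved by over 1 SD with library size only. Of 41 calls of the other clock genes against vehicle, 24 were kept under every alternative that kept all libraries and 22 also when each library was left out in turn. A term for library set lost 12 of them, library size only 10, upper-quartile scaling 3 and no filter 1.

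These numbers of members higher or lower moved by over 1.5 times. With library size only, H10 minus vehicle gave 3 higher and 3 lower, H90 minus vehicle 1 higher, M10 minus vehicle 2 lower, H90 minus H10 1 higher and 3 lower, M90 minus M10 1 higher and 3 lower, and M10 minus H10 5 higher. Upper-quartile scaling gave 1 higher and 3 lower for H90 minus H10. The term for library set gave 1 higher and 0 lower for H90 minus vehicle, 0 lower for M90 minus vehicle, 2 lower for H90 minus H10, 4 higher and 0 lower for M10 minus H10, and 1 lower for the interaction. With limma-voom H90 minus vehicle had 1 higher. Within 1 set it had 1 higher and 1 lower, and H90 minus H10 had 2 lower. Leaving out single libraries gave 0 to 1 lower in H10 and 1 to 3 higher in H90, both minus vehicle. For H90 minus H10 it gave 0 to 1 higher (Dbp, without H10 a or H90 a) and 2 to 6 lower (2 without H90 b). For M90 minus M10 it gave 0 to 1 higher (Arntl, without M10 b). For the interaction it gave 1 to 2 higher (Per3 added without M10 c, log2 0.40) and 0 to 1 lower (Dbp without H90 a, log2 -0.40, and Npas2 without H90 b or M90 a, log2 -0.40 and -0.44).

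The replicate block (letters a to c as a term) gave 5 higher and 1 lower for H10 minus vehicle and 2 higher and 4 lower for H90 minus vehicle, losing Cry2 in H10 (log2 0.28) and adding Per2 in H90 (log2 -0.22), and changed no other call of the members. The letters were not shown to pair libraries: of 30 residual correlations between libraries of a letter 0 were over 0.1 (-0.0237 to 0.0829), though for 11 of 15 libraries the mean correlation was highest within the letter.

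1 call of the members changed sign, Per2 in M10 minus vehicle with library size only (log2 -0.030), and of the modifiers called there Csnk1d and Csnk2b (-0.10 each) did too. The other sign changes were of differences that had not passed. With library size only, Nr1d2 in H90 gave -0.0051, Npas2 in M90 -0.11 and Per2 in M90 -0.15 against vehicle. It also gave 0.012 for Cry2 and 0.0091 for Dbp in M90 minus M10, -0.074 for Clock in M10 minus H10, and -0.0062 for Npas2 and -0.023 for Cry1 in M90 minus H90. Upper-quartile scaling gave -0.0092 for Npas2 and -0.045 for Per2 in M90 minus vehicle and -0.012 for Clock in M10 minus H10. Clock in M10 minus vehicle gave 0.014 with RLE scaling, 0.0060 with limma-voom and 0.013 with DESeq2. The replicate block gave -0.00073 for Per2 in M90 minus vehicle. The term for library set gave 0.10 for Npas2 in H90, 0.25 for Clock in M10 and 0.097 for Cry1 in M90 against vehicle, and 0.078 for Clock in M90 minus H90. Within 1 set, Npas2 in H90 minus vehicle gave 0.10 and Clock in M90 minus H90 0.079.

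Leaving out single libraries carried these differences across 0. Against vehicle, Clock ran from -0.14 to 0.0043 in H10 and -0.078 to 0.060 in M10, Npas2 from -0.18 to 0.035 in H90 and -0.083 to 0.14 in M90, Nr1d2 from -0.018 to 0.087 in H90, Per2 from -0.027 to 0.041 and Cry1 from -0.060 to 0.018 in M90. Between pools, Arntl ran from -0.22 to 0.018 in H90 minus H10, Per3 from -0.037 to 0.19 in M90 minus M10, Clock from -0.12 to 0.079 and Npas2 from -0.0099 to 0.22 in M90 minus H90. In the interaction, Clock ran from -0.18 to 0.021 and Nr1d2 from -0.069 to 0.017.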
